A study of Homo sapiens with 18 samples.

Results

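Kinesins, dyneins and myosins are the motor proteins that move cargo along microtubules and actin filaments, and 96 genes of these motors were followed in RNA that co-purified with a pair of stress granule proteins. The genes were chosen by symbol: KIF and KIFC kinesins, DYNC, DYNL and DNAH dyneins, DCTN subunits of dynactin, and MYO, MYH and MYL myosins, with the brightest row of each gene taken. The cytoplasmic dynein heavy chain DYNC1H1 matches too but was left out by the rule and is not reported here. They are 96 of the 14232 genes that the platform annotation gives a single symbol. Heavy chains, which carry the motor domain, account for 64 of them: 31 kinesins, 18 unconventional myosins, 10 axonemal dyneins (DNAH) and 5 conventional myosins (MYH). Light chains account for 19, made up of 11 myosin and 8 dynein light chains. The other 13 are 5 dynactin subunits, 4 dynein intermediate chains, 3 dynein light intermediate chains and MYO15B, placed in no chain class. Rows that carry several symbols were not used, so some family members have no value here.

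The cells were U251-MG, an established human astrocytoma line. They received arsenite, an oxidative stressor that stalls translation and drives mRNA into stress granules, at 500 µM, or DMSO in the control cells, and RNA was taken after 30 min. Exon arrays measured 6 groups of 3 biological replicates each: the TIAR RNA immunoprecipitate (RIP) with arsenite and with DMSO, the G3BP1 RIP with arsenite and with DMSO, and input, the RNA before immunoprecipitation, with arsenite and with DMSO. TIAR and G3BP1 are RNA-binding proteins of stress granules, and the sample titles write Tial for the TIAR samples. All 6 groups come from 1 cell line grown in 1 medium, and no mock immunoprecipitate was analysed here.

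A myosin or dynein motor is an assembly. Its heavy chain hydrolyses ATP and walks, small light chains stiffen or regulate the lever arm in myosin and link cargo or bind intermediate chains in dynein, and dynactin clamps dynein to its cargo. In astrocytes and glioma cells, non-muscle myosin II drives contraction and migration, kinesins and dynein carry organelles and mRNA granules, and mitotic kinesins build the spindle in dividing cells.

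Values are log2 signals, so a difference of 1 is a doubling of signal. A RIP value shows the make-up of the recovered RNA and not how much RNA the antibody recovered. In these bulk samples, fewer cells of a kind and less RNA per cell cannot be told apart. Differences were tested in limma across all 22011 rows, and a gene is called where the adjusted p is under 0.05. The array medians lay between 7.73 and 8.07. EGR1, an immediate early gene, was higher with arsenite than with DMSO by 3.01 in the TIAR RIP, 3.86 in the G3BP1 RIP and 3.79 in input. Replicate 1 of the arsenite input and replicate 3 of the G3BP1 RIP with DMSO stood apart, each with a mean correlation of 0.98 with its own group, and the other arrays had 0.985 to 0.995. Of 11 astrocyte or glioma markers, 7 were at or above the median level of all rows, 7.94, among them VIM at 12.97 and GFAP at 8.63, while S100B at 4.92 and AQP4 at 4.78 were low. Of the marker lists of other cells, 1 of 8 ciliated cell, 1 of 14 striated muscle, 2 of 6 smooth muscle, 2 of 7 neuron and 1 of 7 myeloid genes reached that level. The 2 neuron genes were NEFL at 13.32, above VIM, and SYT1 at 9.71, above GFAP.

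Level divided the motor genes. In all, 44 of the 96 reached the median level of 7.94 and are called the brighter genes below: 28 heavy chains, 8 light chains and 8 other subunits. None of the 10 DNAH genes, the motors of cilia and flagella, reached it, and the striated muscle light chains MYL1, MYL2 and MYL3 did not either. Of the 28 genes called in none of the 11 comparisons, 25 were below that level. The 8 brighter light chains are DYNLL1, DYNLL2, DYNLRB1, DYNLT1, DYNLT3, MYL6, MYL6B and MYL9.

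The clearest division between chains lay in the G3BP1 RIP. With arsenite, 26 of 64 heavy chains were higher in the G3BP1 RIP than in input and 2 were lower, against 1 light chain higher and 4 lower of 19. With DMSO, again 26 heavy chains were higher and 2 lower, against 1 light chain higher and 7 lower. In all, 41 members were called with arsenite (42.7%; 44.4% of all rows) and 42 with DMSO (43.8%; 39.8% of all rows). The share called is thus near that of all rows, and it is the split by direction that differs between the chains. Among all rows, 29.3% were higher and 15.2% lower with arsenite, and 20.7% were higher and 19.2% lower with DMSO. Of the 26 heavy chains called higher in each condition, 22 were the same genes. The conditions share no arrays, but a single fit gave both tests their estimate of the spread. The share of all rows called higher in both conditions is not given here, so the overlap is not read as particular to heavy chains. Chain class went with gene size: the median gene span was 107.3 kb for heavy chains and 10.6 kb for light chains. Across the brighter genes, span correlated with the G3BP1 RIP minus input difference at Pearson r = 0.50 in each condition. Over all genes with a single symbol r was 0.30 with arsenite and 0.19 with DMSO, and within heavy chains 0.09 and 0.05. The correlation was not particular to the G3BP1 RIP. For the TIAR RIP minus input difference, r across the brighter genes was 0.50 with arsenite and 0.46 with DMSO. Over all genes with a single symbol it was 0.39 and 0.32. Whether span accounts for the division was not tested.

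The brighter genes showed the division most plainly. With arsenite, 18 of their 28 heavy chains (64.3%) were higher in the G3BP1 RIP than in input, where 46.8% of all rows of that level were. Of the 8 light chains, 1 was higher and 2 (25%) were lower with arsenite, where 15.7% of such rows were lower. With DMSO, 16 of the 28 (57.1%) were higher, where 32.4% of such rows were, and 6 of the 8 light chains (75%) were lower, where 27.7% of such rows were. The level that defines these genes includes the G3BP1 arrays, so the counts were repeated with the level taken over the 6 TIAR RIP arrays, which enter neither comparison, an alternative chosen after seeing the data. Then 20 of 30 heavy chains (66.7%) were higher with arsenite and 17 (56.7%) with DMSO, where 45.3% and 30.6% of such rows were. Of 7 light chains, 2 (28.6%) were lower with arsenite and 5 (71.4%) with DMSO, where 16.0% and 27.8% of such rows were. The median log2 difference from input with arsenite was 1.03 for the 28 heavy chains and -0.41 for the 8 light chains, beside 0.30 for all rows of that level. With DMSO it was 0.61 for the heavy chains and -1.27 for the light chains, beside 0.01. Over all members the medians were closer, 0.32 apart with arsenite and 0.38 with DMSO. Without both arrays that stand apart, 27 heavy chains were higher and 2 lower with arsenite, and 29 were higher and 1 lower with DMSO, where 30.3% and 28% of all rows were higher. Centring every array on its median left 26 heavy chains higher and 7 lower with arsenite and lowered the share of higher calls among members called to 62.0%, against 80.5% without centring.

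**Figure D1:**
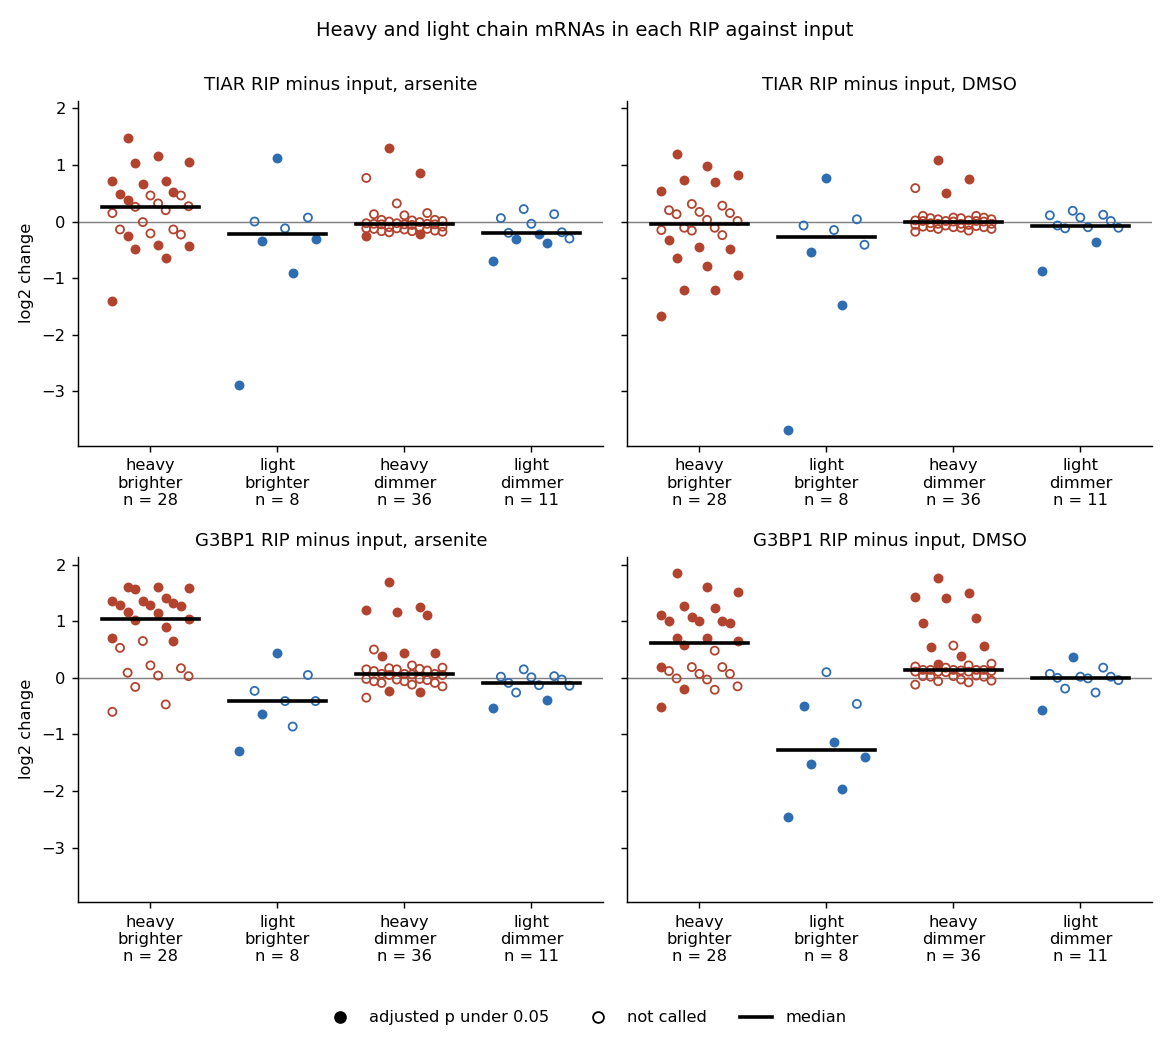
Log2 difference between each RIP and input for every heavy chain (red) and light chain (blue), split into genes at or above the median level (brighter) and below it (dimmer), with filled points for genes called. In the G3BP1 RIP the brighter heavy chains have medians of 1.03 with arsenite and 0.61 with DMSO, and the brighter light chains -0.41 and -1.27, while the medians of the dimmer genes lie close to 0.

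The division held array by array. Each gene was set to its own mean over the 18 arrays, and the median over the brighter heavy chains minus that over the brighter light chains was taken on every array. It was 0.72, 0.68 and 0.57 in the G3BP1 RIP with arsenite and -1.06, -0.80 and -0.74 in the arsenite input. With DMSO it was 1.22, 1.23 and 1.05 in the G3BP1 RIP and -0.70, -0.59 and -0.67 in input. All 6 G3BP1 arrays were thus above all 6 input arrays. In the TIAR RIP it was -0.19, -0.60 and -0.22 with arsenite and -0.11, -0.03 and -0.25 with DMSO, within each condition between the values of the G3BP1 RIP and input.

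**Figure D2:**
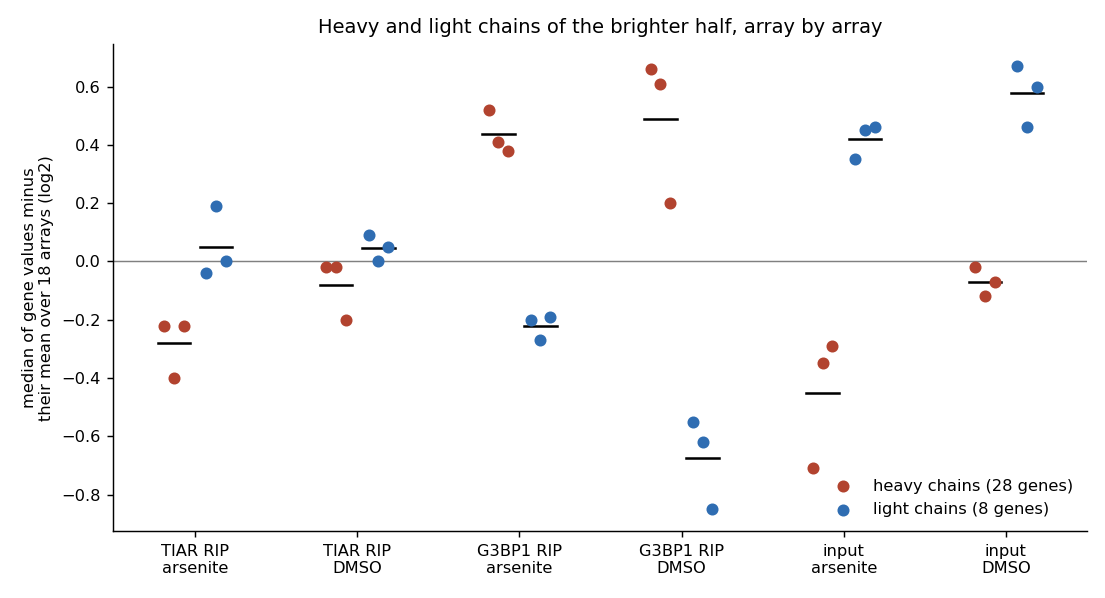
Median of the 28 heavy chains (red) and the 8 light chains (blue) of the brighter genes on each of the 18 arrays, as log2 signal minus each gene's mean over the arrays, with bars at the group means. Heavy chains lie above light chains on all 6 G3BP1 RIP arrays and below them on all 6 input arrays.

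Among the conventional myosins, which form contractile filaments, the non-muscle heavy chains led the G3BP1 RIP. MYH9 (transcript cluster 3959451), the heavy chain of non-muscle myosin IIA, had 11.83, 11.80 and 11.87 in the G3BP1 RIP with arsenite, against 10.32, 10.46 and 10.51 in the arsenite input. With DMSO it had 12.60, 12.53 and 12.52 in the G3BP1 RIP, against 10.74, 10.66 and 10.67 in input. The groups did not overlap, and the log2 differences were 1.41 ± 0.07 (SE, adjusted p = 1.6e-09) and 1.86 ± 0.07 (adjusted p = 1.1e-10). MYH10 (3744463), the heavy chain of non-muscle myosin IIB, was higher by 1.11 ± 0.16 with arsenite (adjusted p = 3.9e-05) and by 1.76 ± 0.16 with DMSO (adjusted p = 4.3e-07). The other 3 MYH genes, the smooth muscle heavy chain MYH11, the non-muscle heavy chain MYH14 and MYH7B, were not called in the G3BP1 RIP against input.

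Unconventional myosins followed the same direction, with 9 of 18 higher and 0 lower with arsenite and 10 higher and 0 lower with DMSO. Of all rows, 29.3% were higher with arsenite and 20.7% with DMSO. MYO10, which builds filopodia, was higher by 1.59 ± 0.16 with arsenite and by 1.51 ± 0.16 with DMSO (adjusted p = 1.2e-06 and 2.4e-06). MYO9A, a class IX myosin, had 8.44, 8.12 and 8.26 in the G3BP1 RIP with arsenite, against 6.30, 6.72 and 6.72 in the arsenite input (1.69 ± 0.25, adjusted p = 5.3e-05). No array of the RIP came near those of input. MYO1C, which tethers membrane to actin, was higher by 1.03 ± 0.07 with arsenite and 1.27 ± 0.07 with DMSO, and MYO9B, the other class IX myosin, by 1.36 ± 0.09 and 1.11 ± 0.09. MYO5A, a vesicle carrier, and MYO19, the mitochondrial myosin, stood further above input with arsenite (1.57 ± 0.17 and 1.61 ± 0.13) than with DMSO (0.58 ± 0.17 and 0.70 ± 0.13). That difference of differences was 0.99 ± 0.24 for MYO5A (adjusted p = 0.00975) and 0.90 ± 0.18 for MYO19 (adjusted p = 0.00315). Within the G3BP1 RIP neither gene was called between arsenite and DMSO (0.15 ± 0.17 and 0.0 ± 0.13). Both fell with arsenite in input (-0.84 ± 0.17 and -0.90 ± 0.13).

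Kinesins were more mixed, with 14 of 31 higher and 1 lower with arsenite and 12 higher and 2 lower with DMSO. Of all rows, 29.3% were higher with arsenite and 20.7% with DMSO. KIF2C, a microtubule depolymerase of the centromere, had 11.58, 11.53 and 11.44 in the G3BP1 RIP with arsenite, against 9.79, 10.44 and 10.43 in the arsenite input (1.29 ± 0.19, adjusted p = 4.5e-05). With DMSO the log2 difference was 1.6 ± 0.19 (adjusted p = 6.0e-06). KIF1B, a carrier of mitochondria and vesicle precursors, was higher by 1.6 ± 0.18 with arsenite and by 1.00 ± 0.18 with DMSO. The chromokinesin KIF22 was higher by 0.71 ± 0.14 and 0.96 ± 0.14. KIF5B, the ubiquitous kinesin-1 heavy chain, went the other way with DMSO, with 10.85, 10.92 and 10.73 in the G3BP1 RIP, against 11.43, 11.28 and 11.32 in input (-0.51 ± 0.12, adjusted p = 0.00399). With arsenite it differed by 0.04 ± 0.12 (adjusted p = 0.819). The spindle motor KIF11 was not called in either condition with all arrays (-0.16 ± 0.26 and 0.48 ± 0.26). Its G3BP1 values with DMSO were 10.89, 10.99 and 9.97, and the low one belongs to the array that stands apart. Without both such arrays KIF11 was higher by 0.81 ± 0.17 with DMSO (adjusted p = 0.00139). Heavy chains lower with arsenite were KIF1A (-0.23 ± 0.09) and DNAH6 (-0.25 ± 0.09), both dim and neither called without those arrays. Without them KIF18A and KIF20B, both among the brighter genes, were called lower instead. With all arrays these differed by -0.47 ± 0.19 and -0.60 ± 0.29 and were not called.

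Of the 8 dynein light chains, 2 were lower and 1 higher in the G3BP1 RIP than in input with arsenite, and 4 were lower and 0 higher with DMSO. Of all rows, 15.2% were lower with arsenite and 19.2% with DMSO. DYNLT3, a Tctex-type light chain, had 9.77, 9.49 and 9.75 in the G3BP1 RIP with arsenite, against 10.70, 11.11 and 11.07 in the arsenite input. With DMSO it had 9.24, 9.28 and 8.57 in the G3BP1 RIP, against 11.57, 11.44 and 11.43 in input. The groups lay far apart, with log2 differences of -1.29 ± 0.16 (adjusted p = 1.3e-05) and -2.45 ± 0.16 (adjusted p = 2.4e-08). DYNLT1, its close relative, was lower with DMSO by -1.52 ± 0.24 (adjusted p = 1.2e-04) and differed by -0.41 ± 0.24 with arsenite (adjusted p = 0.195). DYNLRB1, a roadblock-type light chain, was lower in both conditions (-0.64 ± 0.13 with arsenite, -1.40 ± 0.13 with DMSO). DYNLL1, an LC8 light chain and a hub for many partners, had 11.29, 11.40 and 9.46 in the G3BP1 RIP with DMSO, against 12.84, 12.52 and 12.71 in input (-1.97 ± 0.36, adjusted p = 3.7e-04). Most of its spread comes from the array that stands apart, and without both such arrays the value was -1.34 ± 0.15 (adjusted p = 7.8e-06). DYNLL2, the other LC8 chain, did not follow, with 0.43 ± 0.11 with arsenite (adjusted p = 0.00377) and 0.10 ± 0.11 with DMSO (adjusted p = 0.522).

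Of the 11 myosin light chains, 2 were lower and 0 higher with arsenite, and 3 were lower and 1 higher with DMSO. Among all rows, 15.2% were lower with arsenite and 19.2% with DMSO, and counts among 11 genes are too small to set apart from these shares. MYL6B, an essential light chain, had 8.01, 7.90 and 7.84 in the G3BP1 RIP with DMSO, against 9.05, 9.08 and 9.04 in input (-1.14 ± 0.10, adjusted p = 2.1e-07). With arsenite the difference was -0.23 ± 0.10 (adjusted p = 0.0626). MYL12A, a regulatory light chain of non-muscle myosin that was below the median level, was lower by -0.54 ± 0.11 and -0.57 ± 0.11. MYL12A has a near-identical paralogue that has no value here, and cross-hybridisation was not tested. MYL9, another regulatory light chain, differed by -0.41 ± 0.18 with arsenite (adjusted p = 0.0741) and by -0.50 ± 0.18 with DMSO (adjusted p = 0.0331). MYL6, an essential light chain of non-muscle myosin, differed by 0.05 ± 0.24 and -0.46 ± 0.24, neither called.

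The remaining dynein and dynactin subunits did not move as one block in the G3BP1 RIP. DCTN1, the p150Glued arm of dynactin that binds microtubules, had 10.69, 10.75 and 10.64 in the G3BP1 RIP with arsenite, against 8.57, 8.98 and 8.94 in the arsenite input (1.86 ± 0.11, adjusted p = 7.3e-09). With DMSO the difference was 1.72 ± 0.11 (adjusted p = 1.2e-08). DCTN2, the dynamitin subunit, was higher too (1.19 ± 0.12 and 1.28 ± 0.12). DCTN6, of the pointed-end complex, was lower with arsenite (-0.95 ± 0.19, adjusted p = 9.1e-04) and differed by 0.05 ± 0.19 with DMSO. DYNC1I2, the widely expressed intermediate chain of cytoplasmic dynein, had 8.89, 8.77 and 8.6 in the G3BP1 RIP with DMSO, against 6.82, 6.74 and 7.07 in input (1.88 ± 0.20, adjusted p = 2.4e-06). With arsenite its values were 8.0, 8.05 and 7.76 in the G3BP1 RIP, against 7.37, 7.92 and 7.85 in input, and these groups overlapped (0.23 ± 0.20, adjusted p = 0.38). DYNC1LI2, a light intermediate chain, was higher by 0.50 ± 0.16 and 1.07 ± 0.16.

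**Figure D3:**
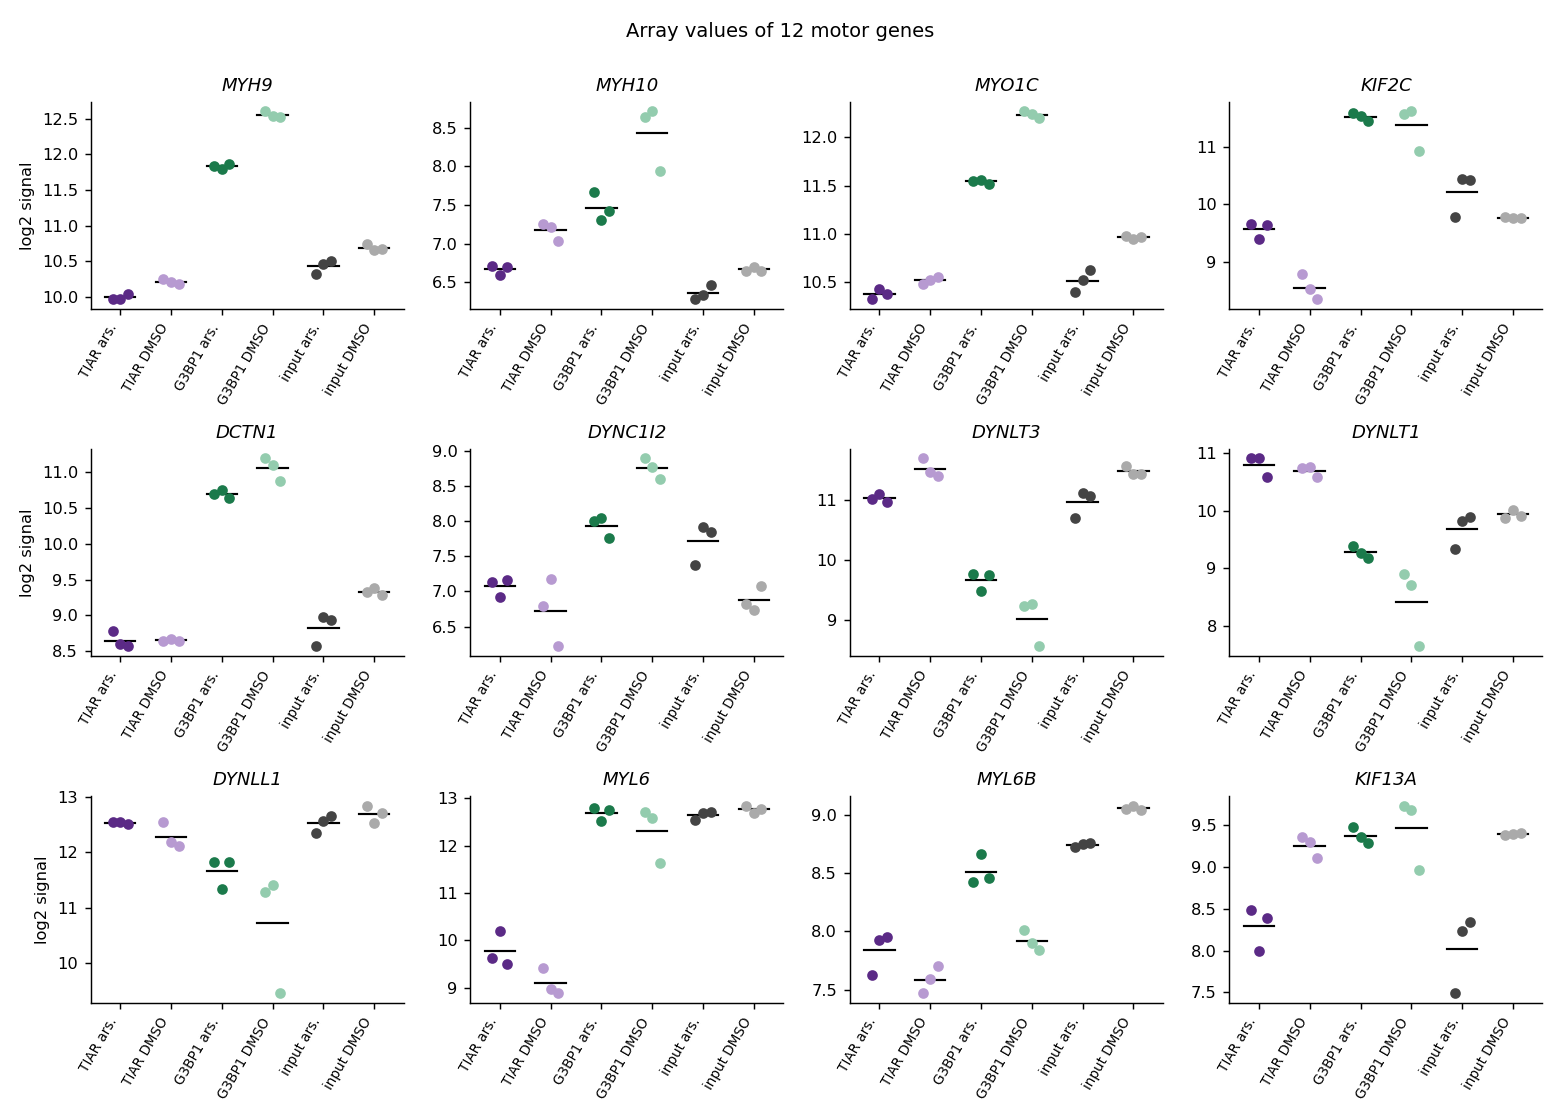
Log2 signal of 12 motor genes on each array, by group (ars., arsenite), with bars at the group means and a separate axis for each gene. MYH9, MYH10, MYO1C, KIF2C and DCTN1 are highest in the G3BP1 RIP, DYNLT3, DYNLT1 and DYNLL1 lowest there, and MYL6 is low on the TIAR RIP arrays.

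The TIAR RIP was set against the same input arrays as the G3BP1 RIP. With arsenite, 37 members were called against input (38.5%; 43.8% of all rows), 15 higher and 22 lower. With DMSO, 32 were called (33.3%; 40.6% of all rows), 12 higher and 20 lower. Among all rows, 20.3% were higher and 23.5% lower with arsenite, and 16.8% higher and 23.8% lower with DMSO. Heavy chains split 12 higher and 8 lower with arsenite and 9 and 9 with DMSO, while light chains split 1 higher and 8 lower with arsenite and 1 and 5 with DMSO. The brighter heavy chains had medians of 0.26 and -0.05, and the brighter light chains -0.22 and -0.28, beside -0.03 and -0.10 for all rows of that level. The balance of higher and lower calls depended on the scale: after median centring, which raised all TIAR against input differences by 0.06 with arsenite and 0.17 with DMSO, 21 members were higher and 15 lower with arsenite and 20 higher and 18 lower with DMSO.

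MYL6 (3417457) had the largest difference of all members in the TIAR RIP. It had 9.63, 10.19 and 9.49 in the TIAR RIP with arsenite, against 12.54, 12.69 and 12.72 in the arsenite input. With DMSO it had 9.42, 8.98 and 8.88 in the TIAR RIP, against 12.85, 12.69 and 12.77 in input. The log2 differences were -2.88 ± 0.24 (adjusted p = 2.3e-07) and -3.68 ± 0.24 (adjusted p = 1.4e-08), and no TIAR array came within reach of the input arrays. Its paralogue MYL6B was lower as well (-0.90 ± 0.10 and -1.47 ± 0.10).

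Other members low in the TIAR RIP were DCTN2 (-1.33 ± 0.12 with arsenite, -1.67 ± 0.12 with DMSO), KIF22 (-1.40 ± 0.14, -1.66 ± 0.14), KIF2C (-0.65 ± 0.19, -1.21 ± 0.19) and MYH9 (-0.44 ± 0.07, -0.48 ± 0.07). DYNC2I2, an intermediate chain of the dynein of intraflagellar transport, was lower by -1.19 ± 0.09 and -1.72 ± 0.09. DYNC1LI1, a light intermediate chain of cytoplasmic dynein, had 10.77, 10.56 and 10.49 in the TIAR RIP with arsenite, against 10.75, 11.43 and 11.33 in the arsenite input (-0.57 ± 0.18, adjusted p = 0.0179). With DMSO it had 9.56, 9.52 and 9.18 in the TIAR RIP, against 10.95, 10.91 and 10.95 in input (-1.52 ± 0.18, adjusted p = 5.2e-06). The gap to input was wide with DMSO, and with arsenite 1 input array lay among the RIP values.

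Members higher in the TIAR RIP made up 15.6% with arsenite and 12.5% with DMSO, beside 20.3% and 16.8% of all rows. In both conditions 11 members were higher, led by KIF3C, and the matching share of all rows is not given here. This kinesin-2 subunit had 10.91, 10.70 and 10.80 in the TIAR RIP with arsenite, against 9.06, 9.44 and 9.45 in the arsenite input (1.48 ± 0.10, adjusted p = 3.6e-08). With DMSO the difference was 1.2 ± 0.10 (adjusted p = 1.7e-07). KIF24, a centriolar kinesin that restrains cilium formation, was higher by 1.15 ± 0.13 and 0.98 ± 0.13, and KIF1B by 1.05 ± 0.18 and 0.82 ± 0.18. MYO6, the myosin that walks to the pointed end of actin, was higher by 1.29 ± 0.27 and 0.75 ± 0.27. DCTN4, a pointed-end subunit of dynactin, was higher by 1.13 ± 0.17 and 0.92 ± 0.17. DYNLT1 was the only light chain called higher, with 10.91, 10.91 and 10.58 in the TIAR RIP with arsenite, against 9.33, 9.82 and 9.89 in the arsenite input (1.12 ± 0.24, adjusted p = 0.00154). With DMSO it was higher by 0.77 ± 0.24 (adjusted p = 0.0196).

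The RIPs were also tested against each other. With arsenite, 48 members differed (50%; 44.3% of all rows), 8 higher and 40 lower in the TIAR RIP than in the G3BP1 RIP. With DMSO, 45 differed (46.9%; 46.8% of all rows), 8 higher and 37 lower. Among all rows, 15.6% were higher and 28.7% lower with arsenite, and 19.3% higher and 27.5% lower with DMSO. Heavy chains were 4 higher and 29 lower with arsenite and 2 higher and 25 lower with DMSO, and no myosin heavy chain was called higher in the TIAR RIP in either condition. Median centring shifted these differences by 0.23 with arsenite and 0.19 with DMSO, and then 17 members were higher and 30 lower with arsenite and 14 higher and 29 lower with DMSO.

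MYL6 lay furthest below the G3BP1 RIP, by -2.93 ± 0.24 with arsenite (adjusted p = 9.4e-08) and -3.22 ± 0.24 with DMSO (adjusted p = 2.3e-08). DCTN2 followed with -2.52 ± 0.12 and -2.95 ± 0.12. KIF22 (-2.11 ± 0.14 and -2.62 ± 0.14), DCTN1 (-2.04 ± 0.11 and -2.40 ± 0.11), KIF2C (-1.94 ± 0.19 and -2.81 ± 0.19) and MYH9 (-1.84 ± 0.07 and -2.34 ± 0.07) were lower too. Of the 8 dynein light chains, 2 were higher in the TIAR RIP and 2 lower (DYNLL2 and DYNLT2) with arsenite, and 4 were higher and 0 lower with DMSO. DYNLT3 was higher in the TIAR RIP by 1.36 ± 0.16 with arsenite (adjusted p = 5.3e-06) and 2.49 ± 0.16 with DMSO (adjusted p = 5.5e-09), and DYNLT1 by 1.52 ± 0.24 and 2.29 ± 0.24. DYNLL1 was higher by 1.56 ± 0.36 with DMSO (adjusted p = 0.00177) and differed by 0.87 ± 0.36 with arsenite (adjusted p = 0.0634). KIF3C was the kinesin furthest above the G3BP1 RIP with DMSO (1.34 ± 0.10), and KIF18A, which positions chromosomes, was so with arsenite (1.00 ± 0.19).

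Dynactin thus split within a single complex. DCTN1 and DCTN2, of its shoulder and arm, were lower in the TIAR RIP than in the G3BP1 RIP, and the pointed-end subunit DCTN4 was higher, by 1.00 ± 0.17 with arsenite (adjusted p = 1.9e-04) and 0.58 ± 0.17 with DMSO (adjusted p = 0.0125). DCTN5, of the pointed-end complex as well, had 11.53, 11.41 and 11.49 in the TIAR RIP with DMSO, against 10.87, 10.93 and 10.46 in the G3BP1 RIP (0.72 ± 0.11, adjusted p = 3.5e-05). With arsenite it differed by 0.24 ± 0.11 (adjusted p = 0.0913). DCTN6 was lower with DMSO (-0.79 ± 0.19, adjusted p = 0.00309) and differed by 0.10 ± 0.19 with arsenite.

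**Figure D4:**
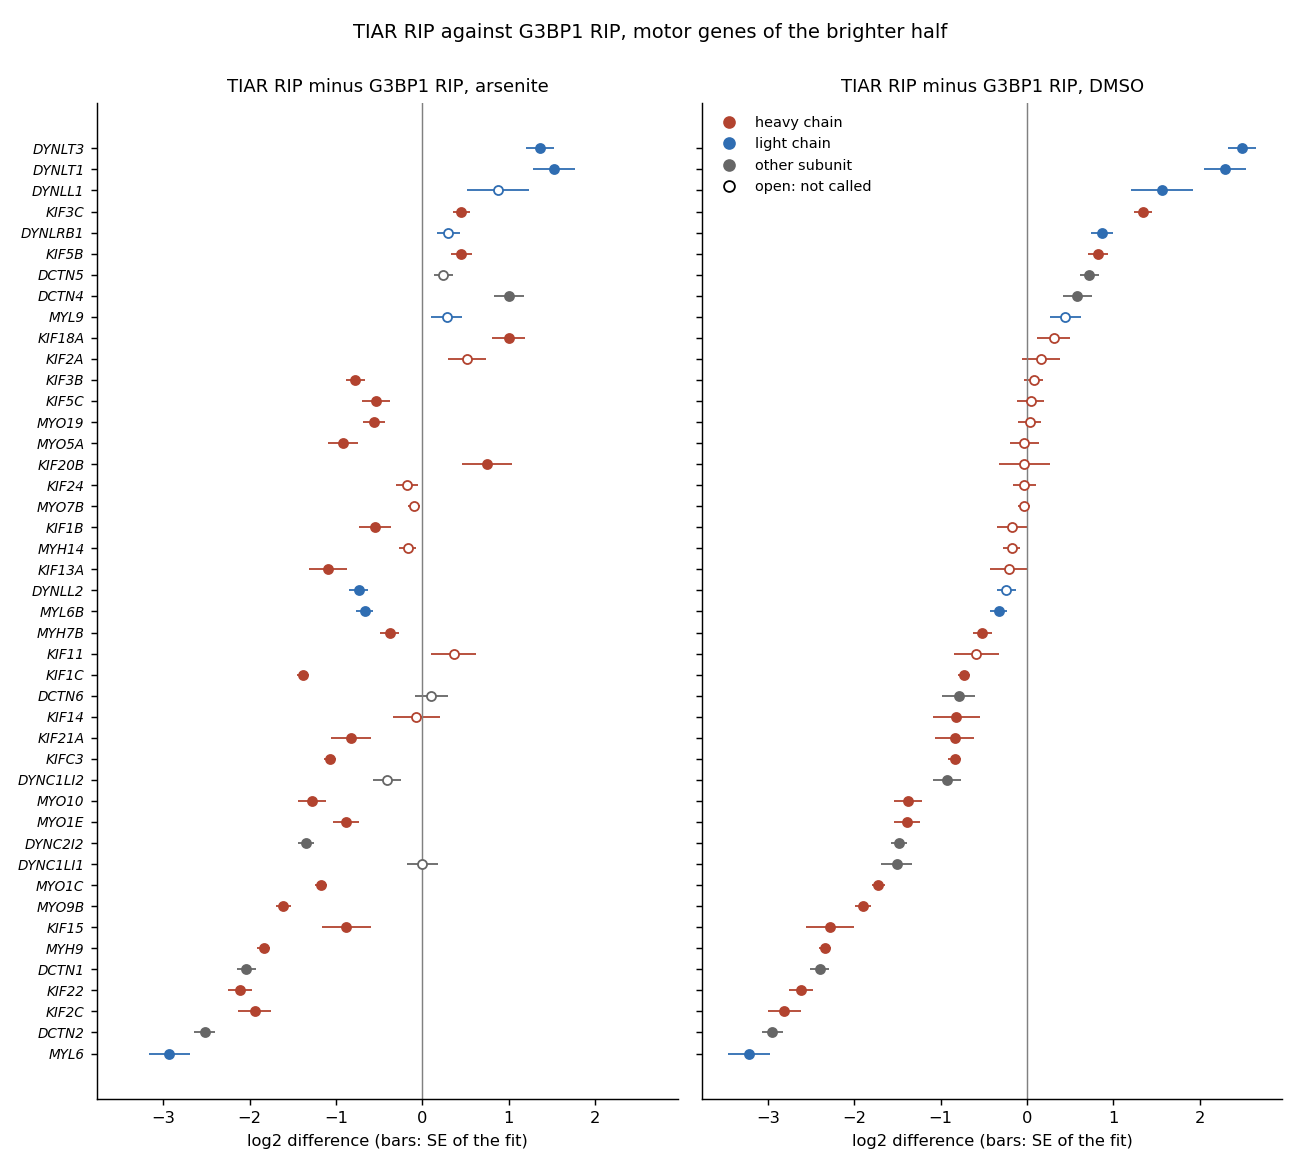
Log2 difference between the TIAR RIP and the G3BP1 RIP with arsenite (left) and DMSO (right) for the 44 brighter genes, ordered by the DMSO value, with SE of the fit as bars and filled points for genes called. DYNLT3 and DYNLT1 lie at the TIAR end and MYL6, DCTN2, KIF2C and KIF22 at the G3BP1 end.

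Arsenite lowered motor mRNAs in input. It changed 21 members (21.9%; 13.7% of all rows), 1 higher and 20 lower, beside 2.52% higher and 11.2% lower of all rows. Heavy chains account for 15 of the 20 and light chains for 2, DYNLT3 and MYL6B. Of the 28 brighter heavy chains, 14 (50%) fell, where 20.4% of all rows of that level did. Their median was -0.44, beside -0.20 for the brighter light chains and -0.15 for all rows of that level. Gene span correlated with the arsenite change of input at Pearson r = -0.40 across the brighter genes. It was -0.14 within heavy chains and -0.24 over all genes with a single symbol. Whether span accounts for the fall was not tested. Array by array, the brighter heavy chains lay between -0.71 and -0.29 with arsenite, against -0.12 to -0.02 with DMSO. Replicate 1 of the arsenite input was the lowest at -0.71, and without both arrays that stand apart 16 of the 28 fell and 1 rose, where 13.4% of all rows fell and 7.07% rose.

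KIF13A, which carries recycling endosomes, fell most. It had 7.49, 8.23 and 8.34 in the arsenite input, against 9.38, 9.39 and 9.40 in the DMSO input (-1.37 ± 0.22, adjusted p = 8.1e-04). MYO9A fell by 0.99 ± 0.25, KIF1B by 0.98 ± 0.18, MYO19 by 0.90 ± 0.13, the kinesin-2 subunit KIF3B by 0.89 ± 0.11 and MYO5A by 0.84 ± 0.17 on the log2 scale. KIF5B fell by 0.57 ± 0.12 (adjusted p = 0.00679). DYNC1I2 was the only member that rose, with 7.37, 7.92 and 7.85 with arsenite, against 6.82, 6.74 and 7.07 with DMSO (0.83 ± 0.20, adjusted p = 0.0116).

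In the TIAR RIP arsenite changed 12 members (12.5%; 11.9% of all rows), 2 higher and 10 lower, beside 6.15% higher and 5.71% lower of all rows. Of the 10, 8 are heavy chains, and MYO9A (-1.22 ± 0.25), KIF13A (-0.96 ± 0.22), KIF1B (-0.76 ± 0.18), MYO5A (-0.73 ± 0.17), KIF3B (-0.71 ± 0.11) and MYO19 (-0.59 ± 0.13) lead them. Those 6 genes also have the largest falls in input. DYNC1LI1 rose, with 10.77, 10.56 and 10.49 with arsenite, against 9.56, 9.52 and 9.18 with DMSO (1.18 ± 0.18, adjusted p = 4.5e-04). KIF2C rose as well, with 9.67, 9.40 and 9.65 with arsenite, against 8.79, 8.53 and 8.36 with DMSO (1.01 ± 0.19, adjusted p = 0.00204). The arsenite and DMSO arrays did not overlap for either gene. Without both arrays that stand apart, neither of which is a TIAR array, the count was 25, with 6 higher and 19 lower, and the shares of all rows grew alike, with 11.6% higher and 11.3% lower.

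The test of the TIAR stress change beyond that of input called 0 members in limma, against 0.654% of all rows (0.604% higher, 0.05% lower), with 9 at an unadjusted p under 0.05. The TIAR RIP change exceeded the input change by 0.98 ± 0.39 for KIF15 (adjusted p = 0.303), 0.95 ± 0.25 for DYNC1LI1 (adjusted p = 0.108) and 0.80 ± 0.34 for MYL6 (adjusted p = 0.341).

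Within the G3BP1 RIP the called light chains rose with arsenite, and most of the called heavy chains fell. Arsenite changed 19 members there (19.8%; 14.5% of all rows), 6 higher and 13 lower, beside 10.4% higher and 4.08% lower of all rows. Light chains were 4 higher and 0 lower, and heavy chains 2 higher and 9 lower. Among the brighter genes the median was 0.62 for light chains and -0.18 for heavy chains, beside 0.07 for all rows of that level, so the contrast between chains against input was smaller with arsenite than with DMSO. On single arrays the heavy minus light value in the G3BP1 RIP was 0.57 to 0.72 with arsenite, against 1.05 to 1.23 with DMSO. Without both arrays that stand apart, light chains were 4 higher and 0 lower and heavy chains 2 higher and 24 lower, where 11.1% of all rows were higher and 13.7% lower. Calls to the lower side thus grew among all rows too. The brighter medians in that fit were 0.36 for light chains and -0.35 for heavy chains. The low array of the DMSO group carries most of that change in count: leaving it out alone gave 31 members, while leaving out arsenite replicate 3 gave 10 and arsenite replicate 2 gave 12.

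Light chains that rose were DYNLT1 (0.86 ± 0.24, adjusted p = 0.0272), DYNLRB1 (0.66 ± 0.13, adjusted p = 0.00227), DYNLT3 (0.64 ± 0.16, adjusted p = 0.0154) and MYL6B (0.59 ± 0.10, adjusted p = 6.7e-04). DYNLT1 had 9.39, 9.27 and 9.17 in the G3BP1 RIP with arsenite, against 8.90, 8.71 and 7.64 with DMSO. All arsenite arrays were above all DMSO arrays, and the lowest DMSO value is on the array that stands apart. The kinesins KIF1C and KIF3C rose by 0.49 ± 0.07 and 0.47 ± 0.10.

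MYH10 led the heavy chains that fell, with 7.67, 7.30 and 7.42 with arsenite, against 8.64, 8.71 and 7.94 with DMSO (-0.97 ± 0.16, adjusted p = 7.8e-04). MYH9 fell by 0.71 ± 0.07, MYO1C by 0.70 ± 0.07, MYO10 by 0.61 ± 0.16 and MYO9B by 0.58 ± 0.09 on the log2 scale. Of the other subunits, DCTN6 had 9.71, 9.53 and 9.48 with arsenite, against 10.71, 10.71 and 10.26 with DMSO (-0.99 ± 0.19, adjusted p = 0.00283), and DYNC1I2 fell by 0.81 ± 0.20. The arsenite and DMSO arrays did not overlap for MYH10, MYH9 or DCTN6.

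**Figure D5:**
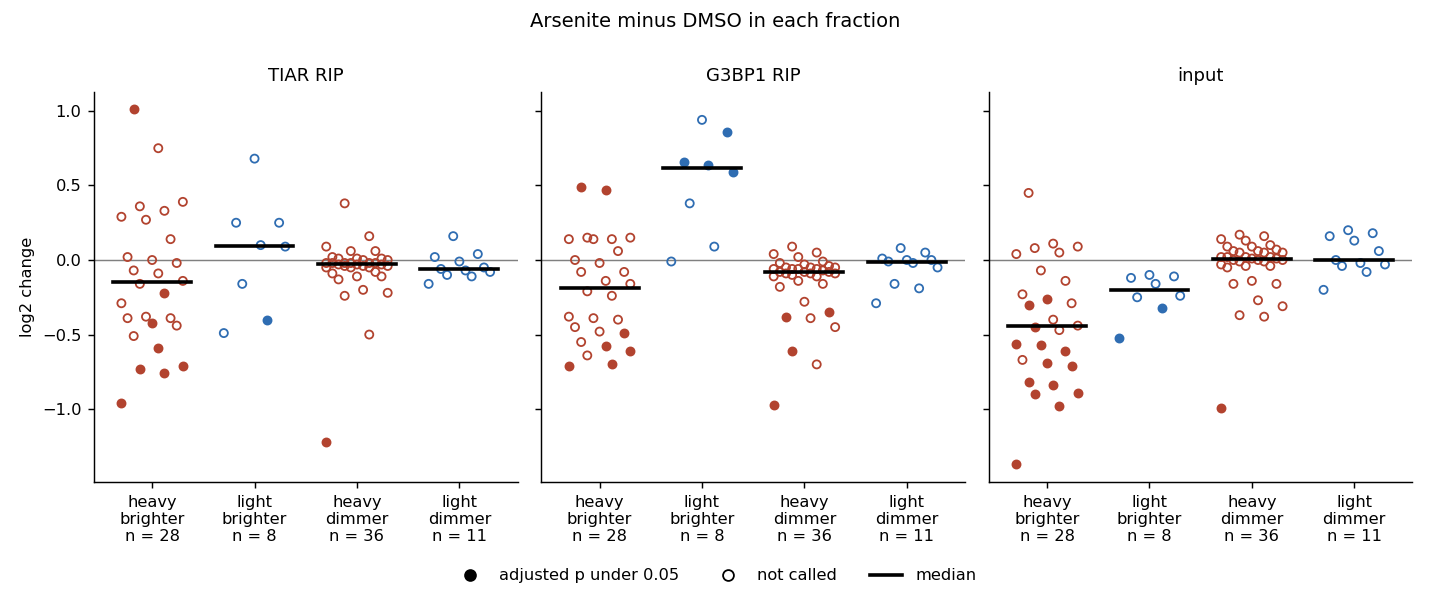
Log2 difference between arsenite and DMSO in the TIAR RIP, the G3BP1 RIP and input for heavy chains (red) and light chains (blue), split by level and with filled points for genes called. The brighter light chains have a median of 0.62 in the G3BP1 RIP and -0.20 in input, and the brighter heavy chains -0.18 and -0.44.

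Set against the change of input, the G3BP1 stress change differed for 19 members (19.8%; 16.9% of all rows), 14 higher and 5 lower, beside 14.3% higher and 2.65% lower of all rows. KIF13A was not called in the G3BP1 RIP itself, with 9.47, 9.36 and 9.28 with arsenite, against 9.73, 9.68 and 8.96 with DMSO, while it fell in input, and the difference of the changes was 1.29 ± 0.31 (adjusted p = 0.00951). DYNC1I2 went the other way, lower in the G3BP1 RIP and higher in input, with a difference of -1.65 ± 0.28 (adjusted p = 0.00104). Among light chains, DYNLT3 (1.16 ± 0.23), DYNLT1 (1.11 ± 0.34), MYL6B (0.91 ± 0.13) and DYNLRB1 (0.76 ± 0.18) were higher beyond input. Heavy chains were 8 higher and 3 lower beyond input, so the opposite directions within the G3BP1 RIP did not carry over to this difference. The split of calls depended on the scale and on the arrays that stand apart: it was 11 higher and 9 lower after median centring, 10 and 14 after quantile normalization, and 14 and 19 without those arrays, where 13.1% of all rows were higher and 9.79% lower. In each of the rescaled fits 4 light chains were higher and 0 lower. Heavy chains were 6 higher and 5 lower after median centring and 6 and 9 after quantile normalization. Without the arrays that stand apart they were 7 higher and 14 lower.

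Of 56 motor partners (adaptors, regulators and further subunits), 41 had a value. In the G3BP1 RIP against input, 23 were higher and 5 lower with arsenite, and 18 higher and 7 lower with DMSO, with medians of 0.41 and 0.28, beside 0.03 and 0.00 for all rows, of which 29.3% were higher and 15.2% lower with arsenite and 20.7% higher and 19.2% lower with DMSO. MPRIP, which ties myosin phosphatase to actin, was higher by 1.49 ± 0.09 with arsenite and 0.98 ± 0.09 with DMSO. UNC45A, a myosin chaperone, was higher by 1.32 ± 0.09 and 1.54 ± 0.09, NUMA1, which anchors dynein at spindle poles, by 1.29 ± 0.09 and 1.2 ± 0.09, and the kinesin light chain KLC1 by 1.42 ± 0.11 and 1.36 ± 0.11. KLC1 is a light chain outside the symbol rule.

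In the TIAR RIP 15 partners were higher and 13 lower than in input with arsenite, and 11 higher and 14 lower with DMSO, beside 20.3% higher and 23.5% lower of all rows with arsenite and 16.8% and 23.8% with DMSO. The tropomyosin TPM2, which lines actin filaments, was lower by -1.59 ± 0.09 with arsenite and -2.31 ± 0.09 with DMSO, and TPM1 by -0.74 ± 0.07 and -0.88 ± 0.07. Arsenite lowered 8 of the 41 partners in input and raised 0, beside 11.2% lower and 2.52% higher of all rows, with MPRIP at -1.07 ± 0.09. TPM2 rose with arsenite in the TIAR RIP by 0.85 ± 0.09 (adjusted p = 1.6e-05), and the change exceeded that of input by 0.72 ± 0.12 (adjusted p = 0.0204). In the G3BP1 RIP, NIN, a centrosomal dynein adaptor, rose with arsenite by 1.08 ± 0.17, and MPRIP fell by 0.55 ± 0.09 on the log2 scale.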

How the data were processed

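The authors made the deposited values with RMA in Affymetrix Expression Console, per the submitters' processing notes, and they are log2 signals of 22011 transcript clusters on 18 arrays. No label or file header names a software version, a genome build or the set of arrays normalised jointly. Gene names came from the platform annotation. The median of the 22011 row means was 7.94.

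Group means were fitted in limma 3.58.1 (R 4.3.3; lmFit, eBayes, no trend, no filter), with 12 residual and 2.61 prior degrees of freedom. Two-sided tests were adjusted by Benjamini-Hochberg over all rows within each of 11 comparisons. The script was tested on simulated data. SE comes from the fit, and 3 arrays a group limit the precision.

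The members and lists were chosen with earlier results of these data known. Named genes were up to 6 called in each direction per comparison by size of change, with no overlap between groups, plus a fixed list of motor genes, and up to 4 motor partners with the smallest p. Some further genes (KIF15, KIF1A, DNAH6, MYL2, DCTN5, KIF18A, KIF1C among them) were named after their values were seen. Alternatives were a replicate block, array weights, leaving out the lowest 50% of rows, median centring, quantile normalization, the mean of a gene's rows, leaving out each array or both that stand apart, and myosins or dyneins alone. No sequence is printed.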

Additional observations from a re-analysis of the deposited data

Results flagged for a closer look

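The arsenite change in the G3BP1 RIP differed from that in input, by the test of the difference itself in limma, for these named motor genes (log2, G3BP1 RIP change minus input change). It was larger by 1.29 for KIF13A, 1.18 for KIF3C, 1.16 for DYNLT3, 1.11 for DYNLT1, 1.11 for KIF1C and 1.03 for KIF3B. It was smaller for DYNC1I2 at -1.65, DCTN6 at -1.0, KIF5A at -0.52, MYH9 at -0.46 and MYO1D at -0.40. KIF1C was the single member called on opposite sides of input in the G3BP1 RIP, with 0.90 ± 0.07 with arsenite (adjusted p = 1.1e-07) and -0.20 ± 0.07 with DMSO (adjusted p = 0.0323). Without both arrays that stand apart, the KIF1C value with DMSO was -0.14 ± 0.06 (adjusted p = 0.0601).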

How the results depend on the processing

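Members called: in the TIAR RIP with arsenite against DMSO, 12 became 27 with array weights, 21 with median centring, 21 with quantile normalization (28.6% of calls higher, against 16.7%) and 25 without both arrays that stand apart. In the G3BP1 RIP, 19 became 40 and 37 with weights and without both arrays (15% and 16.2% higher, against 31.6%), and leaving out single arrays gave 10 to 31. TIAR stress beyond input called 8 with weights, 4 without the lowest 50% of rows and 4 without both arrays, against 0 in limma on all rows and arrays, and G3BP1 stress beyond input called 36 with weights and 33 without both arrays, against 19. Other counts stayed within 1.5 times.

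Over all members, the pooled SD within groups of the heavy minus light value per array was 0.07. Over the brighter genes the SD within a group ran from 0.06 (DMSO input) to 0.23 (TIAR RIP with arsenite). The heavy minus light median moved in these settings. Without the lowest 50% of rows it was -0.25 (TIAR stress), -0.80 (G3BP1 stress), -0.24 (input stress), 0.48 and 0.23 (TIAR against input, arsenite and DMSO), 1.44 and 1.88 (G3BP1 against input), -0.97 and -1.02 (TIAR against G3BP1) and -0.68 (G3BP1 beyond input), against 0.02, -0.10, 0.04, 0.17, 0.10, 0.32, 0.38, -0.15, -0.27 and -0.13. Quantile normalization gave -0.04 for input stress, 0.22 for G3BP1 against input with DMSO and -0.10 for TIAR against G3BP1 with DMSO. Without both arrays it was -0.17 (G3BP1 stress), 0.26 (TIAR against input, arsenite), 0.39 and 0.32 (G3BP1 against input). Myosins alone gave -0.09 (input stress), 0.27 and 0.03 (TIAR against input), 0.61 (G3BP1 against input, DMSO), -0.29 and -0.12 (TIAR against G3BP1). Dyneins alone gave -0.43 (G3BP1 stress), 0.15 (input stress), 0.92 (G3BP1 against input, DMSO), -0.62 (TIAR against G3BP1, DMSO) and -0.64 (G3BP1 beyond input). The dynein heavy chains are the 10 DNAH genes, all below the median level, while 5 of the 8 dynein light chains reached it. Leaving out single arrays gave -0.17 to -0.10 (G3BP1 stress), 0.15 to 0.26 (TIAR against input, arsenite), 0.29 to 0.41 and 0.32 to 0.40 (G3BP1 against input) and -0.32 to -0.17 (TIAR against G3BP1, DMSO). The cause was not tested.

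Pairing by replicate number was not evident: of 15 pairs of groups, 0 had every same-number correlation over 0.1. With 3 arrays a group this check cannot exclude pairing. With the replicate block, 39 members were called in the G3BP1 RIP against input with arsenite and 39 with DMSO, and 16 in G3BP1 stress.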
